A study of Mus musculus with 2 samples.

Results

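Chromatin remodellers of the SWI/SNF, NuRD, ISWI and INO80 families were examined as a group of 49 genes among the 21474 protein-coding genes of the deposited tables. They were chosen by name: every protein-coding gene whose symbol begins with Smarc or with Chd and a digit, and 26 further subunit genes named one by one. The 49 comprise 17 genes of SWI/SNF, 12 of NuRD, 5 of ISWI, 5 of the INO80, SRCAP and TIP60 complexes, 7 other CHD genes and 3 other SNF2-type genes.

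The study sequenced polyA-selected RNA of G1E-ER4 cells, with paired ends, in 2 libraries that are numbered as biological replicates of 1 group. G1E-ER4 is an immortalised male mouse erythroid line. Its parent line G1E lacks the transcription factor GATA1, and G1E-ER4 carries a GATA1-ER fusion, which joins GATA1 to the ligand-binding part of the estrogen receptor. All cells had been kept in 10 nM 17beta-estradiol for 14 h, which activates the fusion protein and starts red cell differentiation. Because both libraries point to 1 biosample record, their spread may hold technical error more than differences between cultures. No untreated cells were analysed here, so the values are levels at 14 h and differences between libraries, not responses to estradiol. Replicate 2 held 60097379 expected counts, the estimated numbers of fragments per gene, and replicate 1 held 38395481. A count of 0 allows up to 3 counts, which is 0.0499 counts per 1e6 counts (CPM) in replicate 2 and 0.0781 CPM in replicate 1, and covers counting error only. Erythroid markers were abundant, with Klf1 at 754 transcripts per 1e6 transcripts (TPM) in replicate 2 and 1422 TPM in replicate 1. Epor had 140 TPM in replicate 2 and 116 TPM in replicate 1. Gata1 had 2656 TPM in replicate 2 and 1132 TPM in replicate 1. Its row may hold RNA of the introduced fusion, which was not separated, so it is a weak marker of cell type here. Markers of other lineages were low but not all absent. The myeloid gene Elane had 0 counts in both libraries, while Mpo had 5 counts in replicate 2 and 4 in replicate 1, and Csf1r had 0 in replicate 2 and 3 in replicate 1. Of the megakaryocyte genes, Gp1bb had 0 counts in both, Pf4 had 9 counts in replicate 2 and 4 in replicate 1, and Itga2b had 6.09 TPM in replicate 2 and 4.84 TPM in replicate 1. Pax5 and Pecam1 had 0 counts in both, and Cd3e, Col1a1 and Kdr had at most 6 in either. In bulk RNA, fewer cells of a type and less RNA per cell cannot be told apart.

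Remodellers use the energy of ATP, through a SNF2-type motor, to slide, eject or exchange nucleosomes. SWI/SNF opens chromatin, NuRD joins a CHD motor to histone deacetylases, ISWI spaces nucleosomes, and the INO80 and SRCAP complexes exchange the histone variant H2A.Z. Most subunit positions can be filled by one of several paralogs, and the choice of paralog differs between cell types. In erythroid cells GATA1 is known to bind FOG1, the product of Zfpm1, which recruits NuRD.

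Most of the remodeller genes were expressed, and many of them at high levels. Of the 49, 42 reached 1 TPM in both libraries, where 37.6% of all protein-coding genes did. At 50 TPM or more in both libraries stood 21 of the 49, where 9.08% of all protein-coding genes and 24.2% of the expressed ones did. The median of the mean TPM was 48.9 over the 49 genes and 20.3 over the 8073 protein-coding genes that were expressed. Together the 49 genes held 506127 counts in replicate 2 and 376477 in replicate 1, which is 0.842% of the counts of replicate 2 and 0.981% of those of replicate 1. NuRD had the most high genes for its size, 8 of 12, against 8 of 17 in SWI/SNF, 2 of 5 in ISWI, 2 of 5 in the INO80 group, 1 of 7 among the other CHD genes and 0 of 3 among the other SNF2 genes. On long coding transcripts alone, defined below, 15 of the 49 genes reached 50 TPM in both libraries. Brd7, the NuRD genes Chd3 and Mta3, the ISWI genes Bptf and Baz1a, and Chd1 did not. No share over all protein-coding genes is given here for the 15. The 5 genes under 0.1 TPM in both libraries were Smarcd3, Actl6b, Chd5, Smarca1 and Chd7. Between those limits lay Chd9, at 0.94 TPM in replicate 2 and 0.65 TPM in replicate 1, and Smarcad1, at 0.89 TPM in replicate 2 and 1.01 TPM in replicate 1. The lowest gene inside the limit was Gatad2b, at 1.65 TPM in replicate 2 and 2.95 TPM in replicate 1. The plot of TPM by complex shows all 49.

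**Figure D1:**
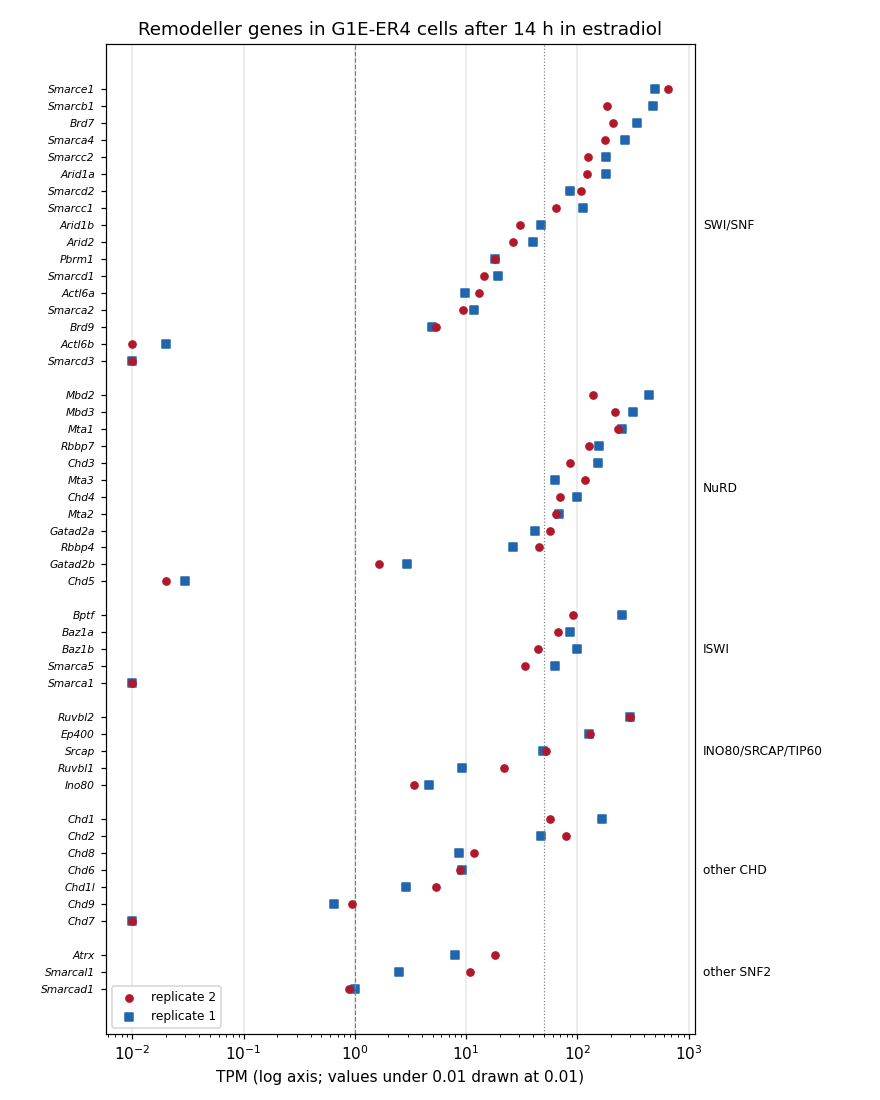
TPM of the 49 remodeller genes on a log axis, by complex, with 1 point for replicate 2 and 1 for replicate 1; values under 0.01 are drawn at 0.01. The dashed line marks 1 TPM, which 42 genes reached in both libraries, and the dotted line 50 TPM, which 21 reached in both.

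The RNA for the SWI/SNF motor was almost wholly of the BRG1 type. Protein was not measured, and shares of RNA need not match shares of subunits in a complex. Smarca4, which encodes the BRG1 ATPase and lies at chr9:21616169-21704230 on GRCm38, had 178 TPM in replicate 2 and 268 TPM in replicate 1. Smarca2, which encodes the alternative ATPase BRM, had 9.38 TPM in replicate 2 and 11.7 TPM in replicate 1. Smarca4 thus held 95.4 ± 0.6% of the summed TPM of the pair (SD, n = 2), and its lower library was far above the higher library of Smarca2. The log2 ratio of Smarca4 to Smarca2, from TPM + 0.1, averaged 4.37 ± 0.19 (SD, n = 2). A pair was called different where its direction was the same in the 2 libraries and its mean ratio exceeded 2 times their range. By this rule 14 of the 20 paralog or partner pairs differed, Smarca4 and Smarca2 among them.

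Most core SWI/SNF subunits were abundant, and at several positions 1 paralog led. Smarcc2, which encodes the scaffold BAF170, had 125 TPM in replicate 2 and 180.0 TPM in replicate 1. Its paralog Smarcc1, for BAF155, had 64.3 TPM in replicate 2 and 113 TPM in replicate 1. Smarcc2 was the higher of the pair in both libraries, by a margin that passed the pair rule on this scale, with a log2 ratio of Smarcc1 to Smarcc2 of -0.82 ± 0.20 (SD, n = 2). Of the BAF60 subunits, Smarcd2 had 107 TPM in replicate 2 and 85.0 TPM in replicate 1, and Smarcd1 had 14.5 TPM in replicate 2 and 19.2 TPM in replicate 1. Smarcd3, the form known from heart and muscle, had 0 counts in both libraries. Set against 3 counts per library, Smarcd2 was at least 2249-fold higher per kilobase than Smarcd3 in replicate 2 and at least 1340-fold higher in replicate 1.

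Of the actin-like genes Actl6a was the expressed one, and its product BAF53A belongs to both SWI/SNF and INO80 complexes of dividing cells. Actl6a had 13.0 TPM in replicate 2 and 9.74 TPM in replicate 1. Actl6b, which encodes the neuronal form BAF53B, had 0 counts in replicate 2 and 1 count in replicate 1. In replicate 2 Actl6a was at least 298-fold higher per kilobase than Actl6b, set against 3 counts. Promoter windows of the pair, 250 bases before to 50 bases after the start, are shown because one paralog was expressed and the other was not detected; they are RefSeq windows on GRCm38.p6, 5′ to 3′, with every CpG dinucleotide in capitals.
Actl6a, chr3:32708296-32708595, plus strand: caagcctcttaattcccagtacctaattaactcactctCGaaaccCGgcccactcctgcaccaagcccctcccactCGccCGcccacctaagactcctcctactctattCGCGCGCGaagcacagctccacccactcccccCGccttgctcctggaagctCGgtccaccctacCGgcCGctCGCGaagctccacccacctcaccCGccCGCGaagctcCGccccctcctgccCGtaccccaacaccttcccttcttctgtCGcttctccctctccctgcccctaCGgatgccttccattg
Actl6b, chr5:137553296-137553595, plus strand: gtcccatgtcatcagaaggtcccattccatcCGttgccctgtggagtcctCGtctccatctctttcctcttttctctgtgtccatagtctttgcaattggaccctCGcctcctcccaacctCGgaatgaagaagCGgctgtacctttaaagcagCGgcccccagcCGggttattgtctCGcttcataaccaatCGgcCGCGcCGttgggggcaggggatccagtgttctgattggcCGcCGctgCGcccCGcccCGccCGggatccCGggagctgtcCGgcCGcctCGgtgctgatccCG
Both windows are CpG-rich: Actl6a has 21 CpG and Actl6b 23, so CpG number did not separate the expressed gene from the other.

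Smarce1, which encodes the HMG-box subunit BAF57, was the highest of all 49 by TPM, at 658 TPM in replicate 2 and 501 TPM in replicate 1. Smarcb1, for the core subunit SNF5, had 184 TPM in replicate 2 and 476 TPM in replicate 1, the widest ratio between the libraries among the expressed SWI/SNF genes. Both values depend on short transcripts, described below.

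The subunits that separate the SWI/SNF subtypes were present for each subtype, at different levels. Arid1a, the large DNA-binding subunit of canonical BAF, had 121 TPM in replicate 2 and 179 TPM in replicate 1. Arid1b, its paralog, had 30.8 TPM in replicate 2 and 47.3 TPM in replicate 1. Arid1a held 79.4 ± 0.4% of the pair's TPM (SD, n = 2), and the SD covers the libraries only. Its share was 87.0% by CPM and 86.8% when only long coding transcripts were counted. By counts per kilobase of the longest annotated coding transcript it was 90.3%. Of the genes particular to the PBAF form, Arid2 had 26.2 TPM in replicate 2 and 40.0 TPM in replicate 1. Pbrm1, for the bromodomain subunit BAF180, had 18.1 TPM in replicate 2 and 18.3 TPM in replicate 1. Brd7, also a PBAF bromodomain gene, had 209 TPM in replicate 2 and 342 TPM in replicate 1. Brd9, which marks the non-canonical form, was the lowest expressed SWI/SNF gene, at 5.34 TPM in replicate 2 and 4.89 TPM in replicate 1. Brd7 was above Brd9 in both libraries under each unit tried, but the log2 ratio of Brd9 to Brd7 was -5.68 by TPM and -1.30 when only long coding transcripts were counted.

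**Figure D2:**
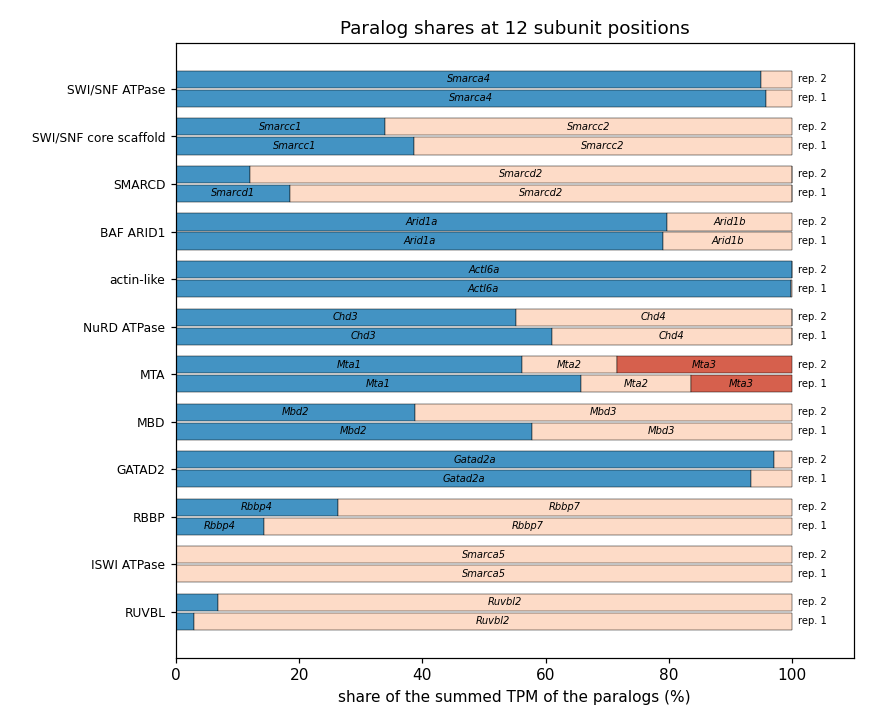
Share of the summed TPM of the paralogs at 12 subunit positions, in percent, with replicate 2 above replicate 1 at each position and 1 colour for each paralog. The same paralog led in both libraries at 11 positions; Mbd2 and Mbd3 changed places.

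The NuRD genes had the highest median of the mean TPM among the complexes, 87.4 against 71.1 for ISWI, although ISWI had the higher median in replicate 1 (83.1 for NuRD and 85.9 for ISWI) and SWI/SNF the higher summed TPM. The leading motor gene of NuRD depended on how length was handled. By TPM, Chd3 led Chd4: Chd3 had 86.5 TPM in replicate 2 and 154 TPM in replicate 1, and Chd4 had 70.4 TPM in replicate 2 and 98.3 TPM in replicate 1. By counts the order was the other way round. Chd4 had 21846 counts in replicate 2 and 13580 in replicate 1, and Chd3 had 8725 in replicate 2 and 9208 in replicate 1. Expected counts per kilobase of the longest annotated coding transcript, scaled to 1e6, were also higher for Chd4, at 108 in replicate 2 and 124 in replicate 1, than for Chd3, at 39.7 in replicate 2 and 77.3 in replicate 1. Chd3 thus held 58.1% of the TPM of the 3 motor genes but 32.7% on the scale of counts per reference kilobase. The pair did not pass the rule by TPM (log2 ratio of Chd4 to Chd3 -0.47) and passed it, with Chd4 higher, when only long coding transcripts were counted (2.37). Chd5, the motor known from neurons, had 12 counts in replicate 2 and 7 in replicate 1.

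Among the MTA scaffolds, Mta1 led with 233 TPM in replicate 2 and 252 TPM in replicate 1. Mta2 had 63.7 TPM in replicate 2 and 67.9 TPM in replicate 1, and the log2 ratio of Mta2 to Mta1 was -1.88 ± 0.02 (SD, n = 2). Mta3 had 118 TPM in replicate 2 and 63.0 TPM in replicate 1, so that Mta2 and Mta3 changed places between the libraries by TPM. On counts per reference kilobase Mta2 stood above Mta3 in both, with a mean log2 ratio of 1.06 that did not pass the rule.

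Both methyl-CpG-binding genes of NuRD were high, and neither led in both libraries by gene TPM. Mbd3 had 219 TPM in replicate 2 and 319 TPM in replicate 1. Mbd2, whose product binds methylated DNA where mammalian MBD3 does so only weakly, had 138 TPM in replicate 2 and 436 TPM in replicate 1. Of this, 76.0% in replicate 2 and 85.5% in replicate 1 lay on Mbd2-202, a coding form of 3 exons. Mbd2-202 passes the length limit for long coding transcripts given below. It shares only positions 146 to 939 of the 7-exon, 1953-base Mbd2-201. Mbd2-201 itself had 32.8 TPM in replicate 2 and 61.7 TPM in replicate 1. Mbd3 held 61.2% of the pair in replicate 2 and 42.3% in replicate 1. Gatad2a, for the p66-alpha subunit, had 56.4 TPM in replicate 2 and 41.5 TPM in replicate 1. It held 95.3 ± 2.7% of the TPM it shares with Gatad2b (SD, n = 2). Of the histone chaperones, Rbbp7 had 127 TPM in replicate 2 and 158 TPM in replicate 1, and Rbbp4 had 45.4 TPM in replicate 2 and 26.4 TPM in replicate 1. Rbbp7 was higher in both libraries by TPM, although the pair did not pass the rule because the libraries lay far apart. By counts alone the 2 were close in replicate 2, with 10110 for Rbbp7 and 10382 for Rbbp4.

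Only 1 ISWI motor gene was detected in the RNA of these cells. Smarca5, which encodes SNF2H, had 33.7 TPM in replicate 2 and 62.5 TPM in replicate 1, from 10934 counts in replicate 2 and 11006 in replicate 1. Smarca1, which encodes SNF2L, had 0 counts in both libraries. Set against 3 counts per library, Smarca5 was at least 2861-fold higher per kilobase in replicate 2 and at least 2879-fold higher in replicate 1. The promoter windows of the pair, shown because this was the largest contrast between 2 paralogs with such a bound, are RefSeq windows on GRCm38.p6, 5′ to 3′, with CpG in capitals.
Smarca5, chr8:80739410-80739709, minus strand: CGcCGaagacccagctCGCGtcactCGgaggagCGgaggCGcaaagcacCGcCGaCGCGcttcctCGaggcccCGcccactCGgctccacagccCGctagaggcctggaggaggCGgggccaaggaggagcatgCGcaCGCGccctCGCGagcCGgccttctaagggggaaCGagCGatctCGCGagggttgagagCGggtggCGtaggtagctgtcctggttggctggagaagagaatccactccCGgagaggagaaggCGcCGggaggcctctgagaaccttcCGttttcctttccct
Smarca1, chrX:47892564-47892863, minus strand: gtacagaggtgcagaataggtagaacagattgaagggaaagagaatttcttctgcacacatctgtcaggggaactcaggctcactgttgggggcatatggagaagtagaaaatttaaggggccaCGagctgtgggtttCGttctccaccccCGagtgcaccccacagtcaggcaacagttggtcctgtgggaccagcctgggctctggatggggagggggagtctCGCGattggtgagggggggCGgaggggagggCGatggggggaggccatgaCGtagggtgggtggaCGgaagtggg
The Smarca5 window has 32 CpG and the Smarca1 window 9, unlike the actin-like pair above. Over the 40 remodeller genes with a RefSeq window matched by symbol, the median was 28 CpG per window, against 7 over 1 window for each of 27018 genes. The 4 undetected genes with a window, Smarcd3, Actl6b, Chd5 and Smarca1, had a median of 27.5. The window of the expressed gene Smarcd2, at chr11:106267583-106267882, had 4. Its leading transcript Smarcd2-201 spans chr11:106263179-106272972 on the minus strand. That window therefore lies inside the transcript and does not describe its start.

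Partners of the ISWI motor were expressed as well. Bptf, the large NURF subunit, had 91.6 TPM in replicate 2 and 253.5 TPM in replicate 1. Baz1a, for ACF1, had 66.4 TPM in replicate 2 and 85.9 TPM in replicate 1. Baz1b, which encodes the WSTF subunit of WICH, had 43.9 TPM in replicate 2 and 98.4 TPM in replicate 1. Baz1b and Baz1a changed places between the libraries by TPM, but on counts per reference kilobase Baz1b was higher in both and the pair passed the rule, with a mean log2 ratio of 1.18.

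In the INO80, SRCAP and TIP60 group the shared helicase Ruvbl2 was far above its partner. Ruvbl2 had 298 TPM in replicate 2 and 299 TPM in replicate 1, the closest match between libraries by TPM among the high genes. Ruvbl1, with which it forms a hetero-hexameric ring, had 21.9 TPM in replicate 2 and 9.26 TPM in replicate 1. The log2 ratio of Ruvbl2 to Ruvbl1 was 4.38 ± 0.88 (SD, n = 2), and Ruvbl2 held at least 91.6% of the pair in each library by TPM, by counts and by counts per reference kilobase. Both genes had nearly all their TPM on 1 coding transcript in both libraries. Ep400, the motor of the p400/TIP60 complex, had 129 TPM in replicate 2 and 126 TPM in replicate 1. Srcap, the motor that deposits H2A.Z, had 52.2 TPM in replicate 2 and 49.3 TPM in replicate 1. Its row includes a transcript that the later annotation gives to the neighbouring gene Tmem265, and without it Srcap had 34.2 TPM in replicate 2 and 37.1 TPM in replicate 1. Ino80, the motor of its complex, was much lower, at 3.38 TPM in replicate 2 and 4.64 TPM in replicate 1.

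The other CHD genes ran from high to undetected. Chd1, whose product remodels chromatin in transcribed genes, had 57.0 TPM in replicate 2 and 167 TPM in replicate 1. Chd2, its paralog, had 79.3 TPM in replicate 2 and 47.6 TPM in replicate 1, so their order differed between the libraries. Chd8, a negative regulator of beta-catenin targets, had 11.8 TPM in replicate 2 and 8.55 TPM in replicate 1. Its relative Chd7, mutated in human CHARGE syndrome, had 0 counts in replicate 2 and 2 counts in replicate 1. Against 3 counts, Chd8 was at least 1731-fold higher per kilobase than Chd7 in replicate 2. Chd6 had 8.74 TPM in replicate 2 and 9.10 TPM in replicate 1, and Chd1l, which encodes the poly(ADP-ribose)-activated remodeller ALC1, had 5.34 TPM in replicate 2 and 2.87 TPM in replicate 1.

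The 3 remaining SNF2-type genes were low to moderate. Atrx, which with DAXX deposits histone H3.3 and is known for alpha-thalassaemia when mutated in humans, had 18.02 TPM in replicate 2 and 7.94 TPM in replicate 1. On long coding transcripts, defined below, Atrx had only 0.60 TPM in replicate 2 and 0.47 TPM in replicate 1, under the 1 TPM limit. Smarcal1, an annealing helicase of stalled forks, had 10.8 TPM in replicate 2 and 2.49 TPM in replicate 1. Smarcad1 stood at the 1 TPM limit, as given above.

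Much of the TPM of several remodeller genes lay on short transcripts or on ones not annotated as protein coding. TPM divides counts by the length of the transcripts to which they were assigned, so a gene whose counts fall on a short transcript has a high TPM. Long coding transcripts were taken as those annotated protein coding with at least 50% of the length of the gene's longest coding transcript. In 20 of the 42 expressed genes, at least 90% of the TPM was on long coding transcripts in both libraries, among them Smarca4, Smarcc1, Smarcc2, Mta1, Mta2, Mbd3, Smarca5, Baz1b and Ruvbl2. In 13 of the 42, or 31.0%, the share was under 50% in both libraries. Among all expressed protein-coding genes this share was 27.6%, so the remodellers were close to the background. In 14 of the 42 the leading transcript was not a long coding one: in 7 it was not annotated as protein coding (Smarcb1, Smarce1, Brd7, Chd3, Chd1, Chd2 and Atrx), and in 7 it was a short coding one (Arid2, Mta3, Bptf, Baz1a, Srcap, Ep400 and Chd6). No share over all expressed protein-coding genes is given here for the 20 and the 14 of 42.

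**Figure D3:**
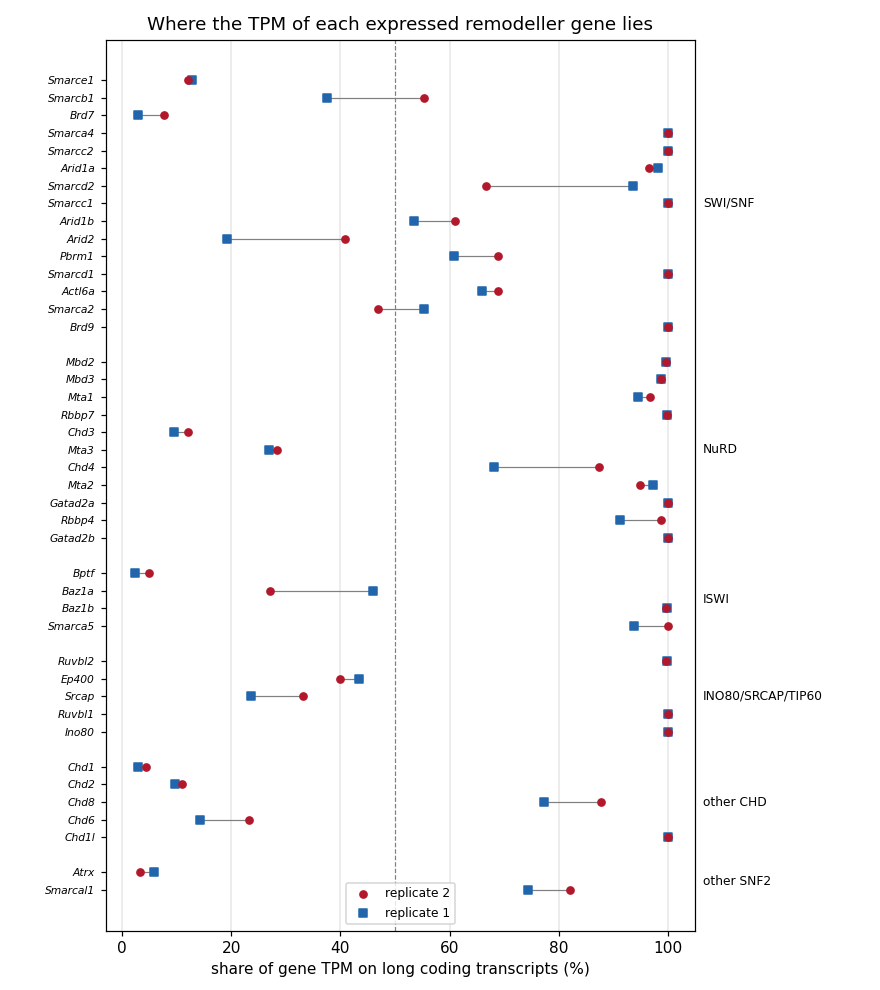
Share of each expressed gene's TPM on long coding transcripts, in percent, for replicate 2 and replicate 1, joined by a line and grouped by complex. The dashed line marks 50%; 13 genes lay under it in both libraries, and 20 were at 90% or more in both.

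In Brd7, Bptf and Chd1 a single such transcript held most of the TPM. The Brd7 transcript Brd7-203, 511 bases at chr8:88357532-88362014 and annotated as a processed transcript, held 92.2% of the gene's TPM in replicate 2 and 97.1% in replicate 1. It held a smaller part of the gene's counts, 55.0% in replicate 2 and 77.6% in replicate 1, and 506 of its bases also lie in the longest coding transcript. For Bptf, the coding transcript Bptf-204 of 780 bases, at chr11:107046666-107052890, held 91.0% of TPM in replicate 2 and 96.9% in replicate 1. Of its bases 334 lie in no other transcript of the gene, whose longest coding form has 12036. Chd1-203, a processed transcript of 1372 bases, held 95.5% of the TPM of Chd1 in replicate 2 and 96.96% in replicate 1, and also most of its counts, 84.8% in replicate 2 and 89.8% in replicate 1. These 3 genes dropped furthest in rank when only long coding transcripts were counted.

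For Smarce1, the processed transcript Smarce1-206 of 610 bases held 74.5% of TPM in replicate 2 and 83.8% in replicate 1, while counts were split almost evenly with the full coding transcript. The long coding TPM of Smarce1 was 80.0 in replicate 2 and 64.0 in replicate 1, against a gene total of 658 in replicate 2 and 501 in replicate 1. In Smarcb1 the nonsense-mediated decay transcript Smarcb1-204 led in replicate 1 with 62.0% of TPM and was second in replicate 2 with 42.6%. In Smarca2, another transcript of that class, Smarca2-202, held 37.4% of TPM in replicate 2 and 44.7% in replicate 1. For Chd3 the retained-intron transcript Chd3-203 held 31.7% of TPM in replicate 2 and 56.2% in replicate 1. For Ep400, the coding transcript Ep400-206 of 974 bases held 39.2% of TPM in replicate 2 and 55.1% in replicate 1 but only 6.87% of the counts in replicate 2 and 9.07% in replicate 1.

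The leading transcript differed between the libraries for 8 of the 42 genes: Smarcb1, Chd3, Mbd3, Baz1a, Srcap, Chd2, Atrx and Smarcal1. For Srcap, the leader in replicate 2 was Tmem265-201, which the later annotation gives to the neighbouring gene. Without that transcript, Srcap-202 led in both libraries. For Chd2, the short coding transcript Chd2-205 held 57.8% of TPM in replicate 2 and 3.14% in replicate 1. Smarcal1 moved between 2 long coding forms, with Smarcal1-207 at 72.5% in replicate 2 and 33.9% in replicate 1. Of the 39 genes with a mean of at least 5 TPM, 20 divided their TPM among 2 or more transcripts that each held at least 10% in each library. For these 20 genes and the 8 above, no share over all expressed protein-coding genes is given here. The 2 counts therefore describe the remodeller genes only and do not set them apart from other genes.

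**Figure D4:**
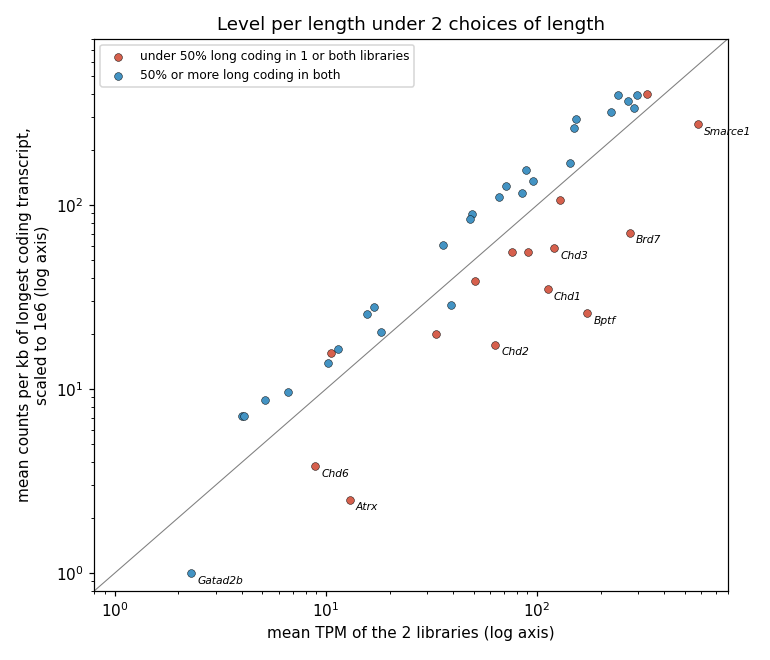
Mean TPM of the 42 expressed genes against mean expected counts per kilobase of the longest annotated coding transcript, scaled to 1e6, both on log axes, with the line of equal values. Genes more than 2 times higher by TPM are named; they include Brd7, Bptf, Chd1, Chd2, Chd3, Chd6 and Atrx.

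The 2 scales ranked most genes alike, with a Spearman rho of 0.88 over 42 genes, which share both libraries. By counts per reference kilobase, Smarcb1, Ruvbl2, Mta1 and Mbd3 were the highest, with Smarcb1 at 233 in replicate 2 and 566 in replicate 1. Smarce1 stood at rank 1 by TPM and rank 8 on that scale, Brd7 at rank 5 and 19, and Bptf at rank 9 and 28. The median over the 49 genes was 34.8 on that scale, against 21.9 for expressed protein-coding genes. When only long coding transcripts were counted, the medians were 14.4 TPM for the 49 genes and 9.70 TPM for expressed genes. Mean TPM was higher with a higher GC content of the leading transcript, with a rho of 0.53 over the 42 genes and 0.38 over 7978 expressed protein-coding genes, given as a description.

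Differences between the 2 libraries were called about as often among remodellers as among all genes. The test was exact, binomial and two-sided, on rounded expected counts against TMM-scaled library sizes, and it compares these libraries, not conditions. Calls needed an adjusted p under 0.05 together with a 1.5-fold change or more. Of the 45 remodeller genes with enough counts, 8 were higher in replicate 2, where 24.3% of all 11230 genes were, and 10 were lower, where 17.1% were. In either direction 40% of the remodellers were called, against 41.4% of all genes.

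**Figure D5:**
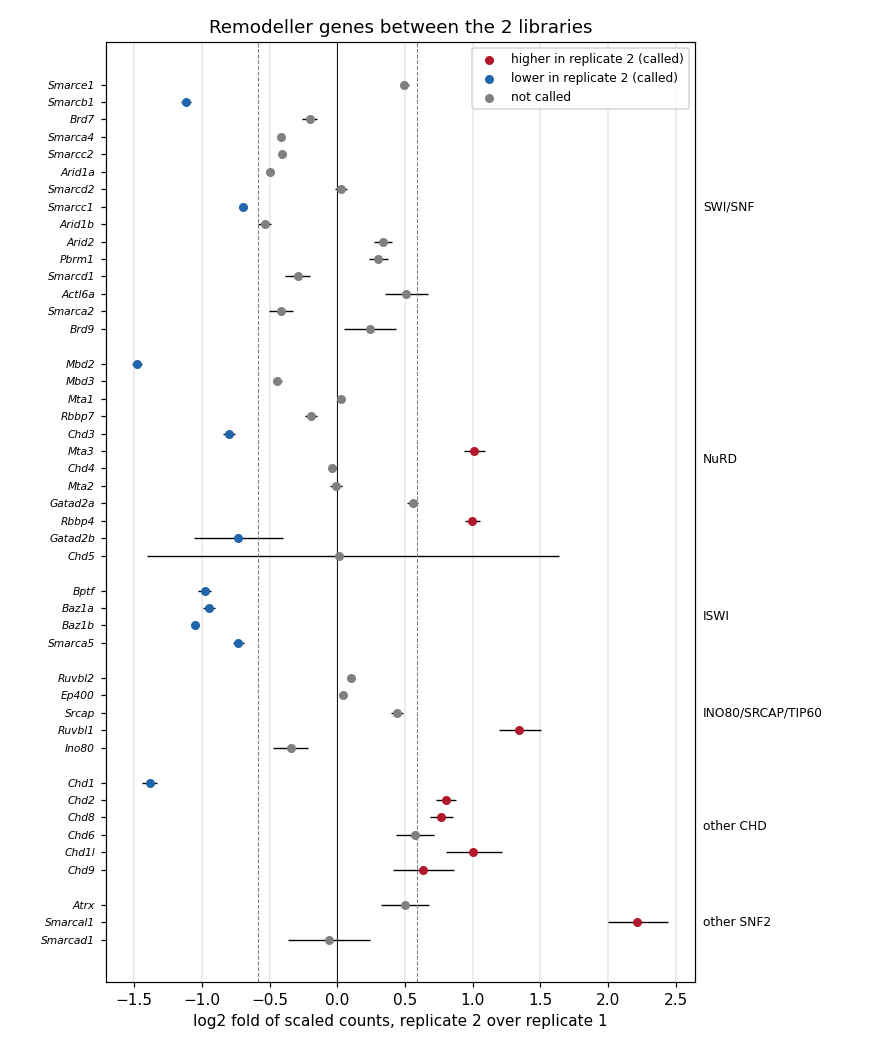
Fold of TMM-scaled counts, replicate 2 over replicate 1, on a log2 axis, for 45 remodeller genes by complex, with exact 95% intervals that cover counting error only. Dashed lines mark a fold of 1.5; the 4 ISWI genes plotted lie left of the lower line, and Smarcal1 lies farthest right.

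Smarcal1 had the largest difference, with 1443 counts in replicate 2 and 188 in replicate 1, a 4.64-fold higher scaled level (95% interval 3.99 to 5.45; exact binomial test, adjusted p = 1.94e-124). Ruvbl1 was 2.54-fold higher in replicate 2 (2.29 to 2.83), Mta3 2.01-fold (1.91 to 2.13), Chd1l 2.01-fold and Rbbp4 2.00-fold. Chd2, Chd8 and Chd9 were higher by 1.74-fold, 1.70-fold and 1.55-fold.

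Mbd2 had the largest difference the other way, 2.78-fold lower in replicate 2, with 9706 counts in replicate 2 and 16387 in replicate 1. Chd1 was 2.62-fold lower and Smarcb1 2.17-fold lower in replicate 2. All 4 tested ISWI genes of the rule were lower in replicate 2, where 17.1% of all genes were: Baz1b 2.08-fold, Bptf 1.97-fold, Baz1a 1.93-fold and Smarca5 1.66-fold. The direction was not shared by the 7 further ISWI subunits, of which Baz2a was 2.03-fold higher, Cecr2 was lower, at 0.629 times replicate 1, and 5 were not called. Chd3 (1.74-fold), Gatad2b (1.66-fold) and Smarcc1 (1.62-fold) were lower as well. In SWI/SNF none of the 15 tested genes was higher and 2 were lower, and of the 6 tested other CHD genes 4 were higher and 1 was lower, where 24.3% of all genes tested were higher and 17.1% lower. Among the 11 further SWI/SNF subunits listed outside the naming rule, 3 were higher and 1 was lower. The erythroid markers did not move one way. Gata1 and Hba-a1 were 2.53-fold and 3.004-fold higher in replicate 2. The Gata1 row may hold RNA of the introduced fusion, and Hba-a1 has a near-identical copy that may share its reads. Klf1 and Zfpm1 were called lower, at 0.571 and 0.570 times replicate 1, and Epor (1.30) and Sptb (1.18) were not called. Their part in the differences of the remodeller genes was not tested.

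The 27 tested genes that were not called include the most stable ones by scaled counts. Mta2 had a fold of 0.993 (0.962 to 1.03), Chd4 0.975 (0.955 to 0.996), Smarcd2 1.02 (0.986 to 1.05) and Mta1 1.02 (1.00 to 1.04), replicate 2 over replicate 1. Smarca4, Arid1a and Arid1b lay inside the 1.5-fold limit, at 0.749, 0.709 and 0.689. Chd5 had too few counts to show a difference, with an interval of 0.377 to 3.12.

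The other subunits of these complexes were nearly all expressed. Of 56 listed genes that the naming rule does not take in, 54 reached 1 TPM in both libraries, 16 of them also 50 TPM, and 14 were higher and 7 lower in replicate 2 by the same test, where 24.3% and 17.1% of all genes tested were. The exceptions, named because they are the only 2, were Actr6, a SRCAP subunit, at 0.15 TPM in replicate 2 and 0.13 TPM in replicate 1, and Zranb3, a fork-remodelling helicase, at 1.13 TPM in replicate 2 and 0.52 TPM in replicate 1. On long coding transcripts alone, 47 of the 56 reached 1 TPM in both libraries. The NuRD-binding cofactor gene Zfpm1 was above every remodeller gene, at 2191 TPM in replicate 2 and 4080 TPM in replicate 1. The deacetylase genes of NuRD were lower than most of its other subunits: Hdac1 had 42.8 TPM in replicate 2 and 22.3 TPM in replicate 1, and Hdac2 had 24.4 TPM in replicate 2 and 33.4 TPM in replicate 1. Cdk2ap1, a small NuRD subunit, had 111 TPM in replicate 2 and 242 TPM in replicate 1.

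By mean TPM, the highest of the other SWI/SNF subunits were Phf10, a PBAF subunit, at 201, Bicra, of the non-canonical form, at 102, and Bcl7c at 90.1. In the ISWI group Cecr2 (61.2), Pole3 (45.7) and Chrac1 (44.0) led, the last 2 being histone-fold partners of ACF1. On long coding transcripts alone Cecr2 had 3.96 TPM in replicate 2 and 3.01 TPM in replicate 1, below Pole3, with 40.3 TPM in replicate 2 and 34.7 TPM in replicate 1, and Chrac1, with 56.4 TPM in replicate 2 and 31.5 TPM in replicate 1. In the INO80, SRCAP and TIP60 group Ino80e (543), Vps72 (332), which encodes a chaperone of H2A.Z, and Ino80b (254) were far above the motor gene Ino80. Daxx, the partner of ATRX, averaged 33.4 TPM, Hltf 13.4 TPM and Rad54l2 9.65 TPM. On long coding transcripts alone Hltf had 0.14 TPM in replicate 2 and 0.20 TPM in replicate 1, under the 1 TPM limit. Daxx and Rad54l2 stayed above it there, at 30.8 and 9.11 TPM in replicate 2 and 33.1 and 9.95 TPM in replicate 1.

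Short motifs were counted in the promoter windows as a description. The letters AGATAA, the GATA motif, searched on both strands, occurred in 2 of 40 remodeller windows (5%; Chd4 and Chd1l), counting 1 window per gene, against 11.4% of 27018 genes. The 40 genes are those outside chromosome 18 described above, which leaves out Mbd2. The exclusion was not applied to the 27018 genes. Which genes hold the motif depends on the window kept. A second Gatad2b window, at chr3:90293836-90294135, held it and was not counted, and a second Chd4 window, at chr6:125095913-125096212, did not hold it. The CCAAT box occurred in 37.5% of remodeller windows and 37.9% of all, TATAAA in 7.5% and 14.2%, the ETS core CGGAAG in 27.5% and 17.2%, and the E-box CACGTG in 7.5% and 7.24%. None of these motifs contains another. Such matches describe the letters only.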

How the data were processed

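Gene and transcript tables of 2 libraries were used. Per the labels the build is mm10, and the deposited notes name GENCODE M4; the aligner and the quantifier's version were not given in the sources used here. The file headers show that the deposited expected counts are estimates of fragments and may be fractional. The deposited TPM and FPKM, per the file headers, divide them by effective length, and the isoform percent deposited by the authors is the part of a gene's TPM on one transcript. Reads that fit several transcripts are divided by estimation, so transcript shares are uncertain where transcripts overlap.

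Symbols, types and coordinates came from GENCODE M21 (GRCm38) by identifier, for 42462 of 43346 Ensembl rows. Rows that name no gene (26345) held 2 counts in replicate 1, 5.21e-06% of that library, and 0 in replicate 2, and were left out. Members and lists were chosen with earlier results of these data known. The naming rule took all members; of the other subunits, the 3 highest per complex and any under 0.1 TPM in both libraries; and always Zfpm1, Gata1, Hdac1 and Hdac2. Actr6, Zranb3 and Baz2a fall outside it and were picked with their values known; the cell type markers are a list of their own. CPM and counts per reference kilobase were computed from expected counts. The library test used rounded expected counts, TMM sizes (edgeR 4.0.16), at least 10 counts in sum and Benjamini-Hochberg adjustment, with 0.5 counts added for folds; p-values measure counting error between 2 libraries. DESeq2 1.42.0 size factors were an alternative. The test was tried on simulated data that held counting error only. That trial cannot show how reliable the calls between the real libraries are. Promoter windows and motifs came from RefSeq.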

Additional observations from a re-analysis of the deposited data

Results flagged for a closer look

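Counts on 2 pseudogene rows outside the measurements above passed the limit of 3 counts in replicate 2. Smarca5-ps, a transcribed processed pseudogene on chromosome 4, had 6.01 expected counts in replicate 2 and 0 in replicate 1. Smarce1-ps1, on chromosome 8, had 3.06 expected counts in replicate 2 and 1.03 in replicate 1. Both are small beside Smarca5, with 10934 counts in replicate 2 and 11006 in replicate 1, and Smarce1, with 27023 in replicate 2 and 11627 in replicate 1.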

How the results depend on the processing

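No paired analysis was possible because there is only 1 group. Long coding transcripts were counted alone as an alternative chosen after seeing the data. The median level of 48.9 TPM became 41.9 by FPKM, 123 by CPM, 34.8 by counts per reference kilobase and 14.4 on long coding transcripts, and 45.4 to 47.6 in single libraries. The Chd3 share of 58.1% became 34.5%, 32.7% and 16.2% by CPM, counts per reference kilobase and long coding transcripts. By the same 3, the log2 ratio of Chd4 to Chd3 became 0.94, 1.06 and 2.37, of Mta2 to Mta3 1.29, 1.06 and 1.40, and of Baz1b to Baz1a 1.25, 1.18 and 1.30. The Chd1 to Chd2 ratio became -0.84 on long coding transcripts. In replicate 2 and replicate 1 alone, Mbd3 held 61.2% and 42.3% of its pair, and the log2 ratios were 0.66 and -0.45 for Mbd3 to Mbd2, -0.89 and 0.11 for Mta2 to Mta3, -0.60 and 0.20 for Baz1b to Baz1a, and -0.48 and 1.81 for Chd1 to Chd2. At a 2-fold minimum 4 genes were higher and 4 lower, where 14.5% and 7.23% of all genes tested were. Of the ISWI genes only Baz1b was called there. By folds of TPM 7 genes were higher and 13 lower, where 21.6% and 22.2% of all genes tested were. The members' median log2 ratio between the libraries, replicate 2 over replicate 1, was -0.30 by TPM, -0.023 by scaled counts and -0.12 on long coding transcripts. Over all protein-coding genes these medians were -0.09, 0.047 and -9.8e-05. At 20% per transcript, 10 genes in place of 20 had 2 or more. Leading transcripts not annotated as protein coding numbered 4 in replicate 2 alone and 7 in replicate 1 alone. The cause of these changes was not tested. The remaining counts stayed within 1.5 times.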
